A study of Homo sapiens with 4 samples.

Results

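Genes that carry a cell through mitosis were followed in HCT116 cells, an established human colorectal cancer line, after transfection of an siRNA against TET1. The 50 genes were chosen by their known roles in mitotic entry, the spindle, the anaphase-promoting complex and cytokinesis. The choice was made with earlier results of these data known, though no measured value enters the rule. Every probe set, the group of short probes that reports one transcript on this array, was taken whose annotation gave 1 of these gene symbols and no other. This gave 108 probe sets for 48 of the 50 genes, out of 19775 genes with such a probe set. ANAPC1 and CIT had only probe sets annotated to several symbols. One group of 2 samples had received a control siRNA and the other group of 2 samples the TET1 siRNA, with the same lipid transfection reagent, and each sample was hybridised to 1 Affymetrix array. By the design text the 2 samples of a group are biological duplicates. The labels name a single TET1 siRNA condition, so effects of TET1 loss and of that siRNA itself cannot be told apart.

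A cell enters mitosis when CDK1, bound to cyclin A or cyclin B, is released from the inhibitory kinases WEE1 and PKMYT1 by CDC25 phosphatases. The duplicated centrosomes and chromosomes are then arranged on a spindle of microtubules. The anaphase-promoting complex (APC/C), a ubiquitin ligase, afterwards marks securin and the cyclins for destruction, and a central spindle and contractile ring divide the cell. Most of these genes are transcribed late in the cell cycle, under the control of the MuvB complex with the DREAM, MYBL2 and FOXM1 factors and of the CCAAT-binding factor NF-Y, so their mRNA is more abundant in dividing than in resting cultures.

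The mitotic genes were lower after TET1 siRNA as a group. Of the 48 genes, 28 fell and none rose at a limma adjusted p below 0.05, while 20 did not pass. At an unadjusted limma p below 0.05, 34 members were lower and 4 higher. That cut was passed, in either direction, by 4210 of all 12389 genes tested. The 28 falls are 58.3% of the members, against 10.6% of all 12389 genes tested, and the shares of all genes that rose or changed either way were 11.2% and 21.9%. The median log2 difference was -0.39 over the members and 0.01 over all genes tested. Falls were moderate. The genes that fell kept between 53.3% (DEPDC1) and 81.9% (PTTG1) of their control signal, with a median of 68.2%, 12 of them fell by at least 1.5-fold by plain signal, and none by 2-fold. In 36 members both TET1 siRNA arrays lay below both control arrays, in 5 they lay above, and in 7 the groups overlapped. Among all genes tested, 28.2% lay wholly below and 30.9% wholly above. The 2 TET1 siRNA arrays gave alike values: the median member was lower than the control mean by a log2 difference of -0.41 on replicate 1 and -0.39 on replicate 2. In bulk RNA, fewer cells in mitosis and less of these mRNAs per cell cannot be told apart.

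**Figure D1:**
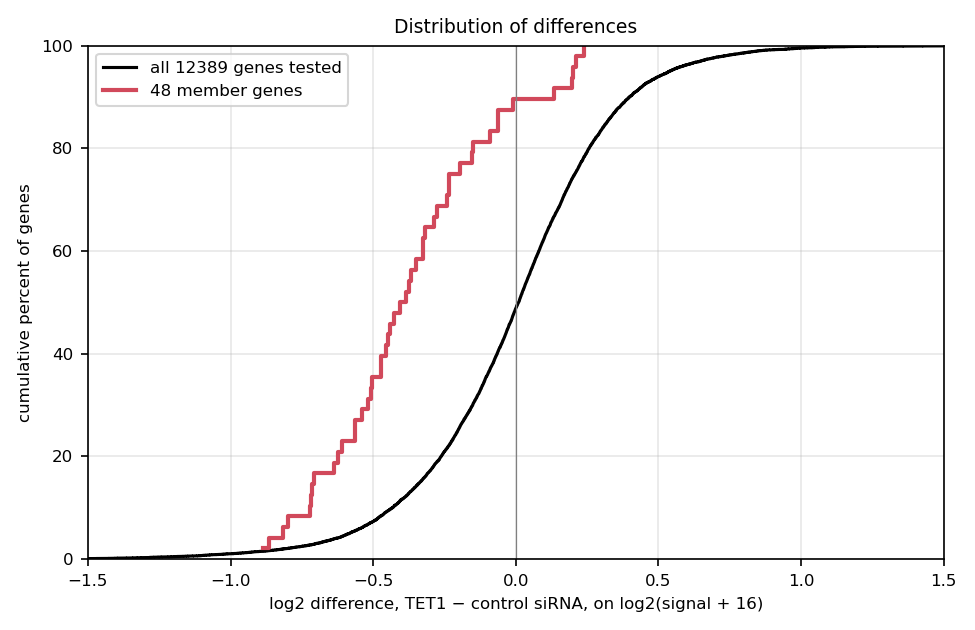
Cumulative percent of genes (vertical axis) by log2 difference between TET1 and control siRNA on the log2(signal + 16) scale (horizontal axis, shown to 1.5 on either side), for all 12389 genes tested (black) and the 48 mitotic genes (red). The red curve lies to the left, with a median of -0.39 against 0.01, and 43 of the 48 genes have a negative difference.

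These differences are on the log2(signal + 16) scale, of brightness in arbitrary units with a common trimmed mean across arrays, and they understate the change of dim genes. With 2 arrays against 2 an exact permutation test cannot give a p below 0.33, so each p rests on limma, which borrows the spread of other genes. Without that borrowing no member and no other gene passed. An unadjusted p below 0.05 was then reached by 27 of the 48 members and by 2679 of all 12389 genes tested. With 1 prior variance for all signals, 15 members fell. All 48 genes passed the filter on dim probe sets, which uses the mean of all 4 arrays. None of the 8 members with a mean control signal under 150 passed (SE from 0.143 to 0.293), against 28 of the 40 brighter ones (SE from 0.0627 to 0.141). That limit was set after the values were seen, and the share of all genes on either side of it was not counted. The share of all genes that fell was larger among brighter genes. With an upper-quartile filter on dim probe sets it was 16.1% of 7816 genes, beside 29 of the 45 members tested there.

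Other measures of the arrays were checked beside this result. TET1 itself kept 25.1% of its control signal, with 58.1 and 59.6 on the control arrays against 14.6 and 15 on the TET1 siRNA arrays. Of 8 colon epithelial markers, the 3 keratin genes and EPCAM were bright and CEACAM5 was dim, with EPCAM at 2869.5 and 2742 against 3133.5 and 3095.2, while E-cadherin (CDH1) fell and KRT8 rose. Markers of lymphocytes (5), myeloid cells (6) and endothelial cells (5) were near background, with median control signals of 8.4, 10.9 and 6.35. Their summed signals with control siRNA were 28.4 to 53.9, 51.3 to 62.6 and 30.1 to 47.9, and with TET1 siRNA 50.3 to 59.4, 45.7 to 51.7 and 24.3 to 36.6. The summed signal of the 6 fibroblast markers was 312.4 to 353.6 with control and 386 to 491.6 with TET1 siRNA, nearly all from COL1A1, the 1 of the 6 that passed. None of the markers was listed at 0 on any array. The ratio of the 3' to the 5' probe set of beta-actin, a sign of RNA integrity, was 1.21 and 1.19 with control and 1.28 and 1.26 with TET1 siRNA. That of GAPDH overlapped between groups, at 0.858 and 0.846 against 0.884 and 0.858. The part of these values in the result was not tested.

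The stretches just upstream of the transcription start sites are shown because the promoters of many of these genes are known for a shared layout. That layout is a CCAAT box, bound by NF-Y, followed by a cell cycle genes homology region (CHR), where MuvB binds. RefSeq windows (GRCh38.p14, from 250 bases before to 50 after a start) were found for 43 of the 50 genes, and the 100 bases before the start are printed 5′ to 3′ on the gene's own strand. Capitals mark exact matches, found on either strand. The CCAAT box reads ATTGG on the opposite strand. The CHR was searched in its main form TTTGAA, which reads TTCAAA on the opposite strand, and in a second form, TTTAAA. The first 3 are a cyclin gene whose probe sets disagreed, a cyclin gene that fell, and a gene with the same layout whose difference was positive.
CCNB1: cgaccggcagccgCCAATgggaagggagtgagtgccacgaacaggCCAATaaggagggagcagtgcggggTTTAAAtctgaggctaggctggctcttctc
CCNB2: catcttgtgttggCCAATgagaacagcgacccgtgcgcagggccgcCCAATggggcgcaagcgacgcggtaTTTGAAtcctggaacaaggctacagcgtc
CKS2: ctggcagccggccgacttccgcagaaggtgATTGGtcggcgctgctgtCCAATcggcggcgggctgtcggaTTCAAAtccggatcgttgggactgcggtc
The next 3 are genes with some of the largest falls of the spindle, cytokinesis and entry steps and with both elements.
DEPDC1: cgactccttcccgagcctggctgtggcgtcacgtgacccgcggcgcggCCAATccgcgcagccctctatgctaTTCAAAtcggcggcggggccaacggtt
PRC1: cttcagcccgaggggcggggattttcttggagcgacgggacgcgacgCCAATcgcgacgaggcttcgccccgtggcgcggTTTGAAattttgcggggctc
PLK1: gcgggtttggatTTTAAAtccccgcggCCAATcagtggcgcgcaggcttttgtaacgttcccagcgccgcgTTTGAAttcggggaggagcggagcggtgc
The last 2 fell as far and hold no exact match to TTTGAA or TTTAAA in this stretch. Other forms of the CHR were not searched, so a CHR of another form may be present.
CCNA2: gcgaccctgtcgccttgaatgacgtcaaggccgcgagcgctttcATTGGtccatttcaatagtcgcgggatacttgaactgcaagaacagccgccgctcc
CDC27: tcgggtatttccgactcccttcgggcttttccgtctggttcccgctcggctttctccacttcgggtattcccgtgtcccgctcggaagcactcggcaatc
They lie at chr5:69167050-69167149 on the plus strand (CCNB1), chr15:59105046-59105145 plus (CCNB2), chr9:89311095-89311194 plus (CKS2), chr1:68497083-68497182 minus (DEPDC1), chr15:90994536-90994635 minus (PRC1), chr16:23678789-23678888 plus (PLK1), chr4:121823884-121823983 minus (CCNA2) and chr17:47189296-47189395 minus (CDC27). All are intergenic in the RefSeq gene table except that of DEPDC1, which overlaps the antisense gene DEPDC1-AS1.

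In this layout the CHR match began 27 bases before the start in DEPDC1, 20 in PRC1, 29 in PLK1, CCNB2 and CKS2, and 30 in CCNB1, where it has the form TTTAAA. The nearest CCAAT box upstream of it began 52, 53, 73, 54, 52 and 55 bases before the start, in the order DEPDC1, PRC1, PLK1, CCNB2, CKS2 and CCNB1. Of the 41 members that were both measured and had a window, 26 held TTTGAA (63.4%, against 13.8% of 10106 tested genes with a window), 11 held TTTAAA (26.8% against 11%) and 32 held a CCAAT box (78.0% against 43.1%). E2F sites, searched as TTTCGCG and TTTGGCG on both strands, were found in 4 members (9.76% against 6.42%). A CCAAT box and either CHR form stood in 1 window of 24 members (58.5% against 9.12%). A CHR match starting 40 to 15 bases before the start, limits chosen after the positions were seen, was found in 16 members (39.0% against 2.85%). Over all 35116 windows of the table the shares were 15.2% for TTTGAA, 12.2% for TTTAAA, 34.6% for CCAAT, 3.19% for the E2F sites, 9.27% for CCAAT with CHR and 3.01% for CHR at those distances. Most members are known late cell cycle genes, so the sharing of elements is a description of the list.

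Of the 24 members with both elements 17 fell, with a median log2 difference of -0.46, and of the 17 others 7 fell, with a median of -0.32. Outside the members, 135 of 898 tested genes with both elements in 1 window fell (15%). Among tested genes with a window but without both elements, members included, 10.3% fell. Single genes departed from these medians: CKS2 holds both elements and was at 0.20. CCNA2, at -0.82, holds a CCAAT box and no exact match to the CHR forms searched. Whether it holds a CHR of another form was not searched. CDC27 counts among the 24 through a CCAAT box 226 bases before and a TTTAAA 40 bases after the start, both outside the printed stretch. A match of letters is no sign that a factor was bound in these cells, and no test was made on the motifs.

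**Figure D2:**
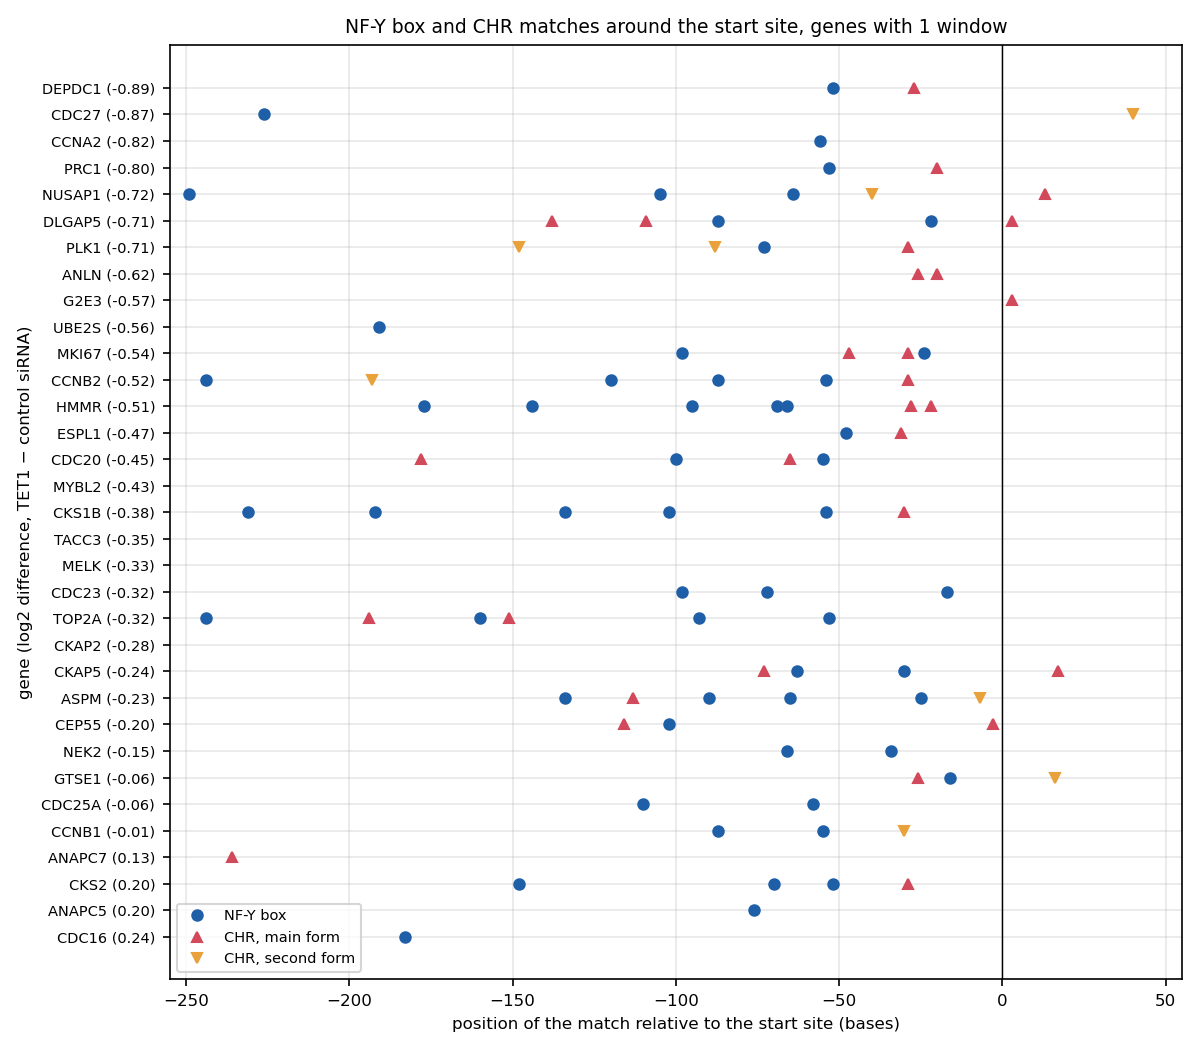
Positions of exact matches around the start site (horizontal axis, bases) for the 33 measured members with 1 promoter window, ordered by log2 difference (in brackets, lowest at the top). Blue circles are NF-Y boxes (CCAAT), red triangles the CHR form TTTGAA and orange triangles TTTAAA. Many CHR matches lie 20 to 31 bases before the start with an NF-Y box upstream, among genes at -0.89 (DEPDC1) as well as at 0.20 (CKS2).

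Mitotic entry genes were lower in 9 of 17 members, with none higher, a median log2 difference of -0.43 and 8 that did not pass. CCNA2 encodes cyclin A2, which drives S phase and the start of mitosis. Its signals were 591.6 and 597.3 on the control arrays against 333.9 and 327.0 on the TET1 siRNA arrays, and it kept 55.6% of the control level. The groups lay far apart and each was tight, and CCNA2 fell by 0.82 on the log2 scale (SE 0.0851, limma adjusted p = 7.38e-05). CDK1, the kinase of mitotic entry, read 2728.4 and 2765.9 against 1785.0 and 1805.4 and kept 65.3% of control (log2 difference -0.61, SE 0.0627). Of its 4 probe sets 3 fell. The dimmest read 83.5 and 65.4 against 42.4 and 54.0 and did not pass (-0.49, limma adjusted p = 0.0915). PLK1, a kinase that activates CDC25 and matures centrosomes, went from 289.4 and 279.5 to 162.2 and 174.2, a log2 difference of -0.71 (SE 0.106). In all 3 genes both TET1 siRNA arrays lay below both control arrays by more than the spread within a group.

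Of the 3 CDC25 phosphatases, which remove inhibitory phosphates from CDK1, 2 fell. CDC25B read 548.1 and 407.1 with control and 314.4 and 251.2 with TET1 siRNA. Its groups did not overlap but its control arrays were far apart, and it fell by 0.72 (SE 0.141, adjusted p = 0.00387 in limma). CDC25C went from 250.8 and 252.2 to 171.2 and 173.9, a fall of 0.50 (SE 0.106), and its second probe set also fell (135.3 and 104.2 against 49.3 and 67.7). CDC25A, which also acts at the start of S phase, was dim, its groups overlapped (43.9 and 53.8 against 44.5 and 47.4), and none of its 3 probe sets passed. Its SE of 0.183 is wide, and its difference from the other two was not tested. The opposing kinases did not pass: WEE1 had a log2 difference of -0.09 with overlapping groups, and PKMYT1 of -0.37 with an SE of 0.160.

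Of the other entry genes, CCNB2, the second B-type cyclin, went from 1087.3 and 992.4 to 732.1 and 710.3 (log2 difference -0.52), and its other 2 probe sets were below the filter. With the mean of all 3 CCNB2 probe sets the difference was -0.13 and did not pass (limma adjusted p = 0.534). G2E3, a ubiquitin ligase gene expressed in G2, fell in 4 of its 5 probe sets, by its brightest from 417.2 and 407.3 to 263.3 and 283.9. MELK, a kinase abundant in dividing cells, fell by 0.33, a call that ended without control siRNA replicate 2 (-0.26, limma adjusted p = 0.101) and without TET1 siRNA replicate 1 (-0.28, 0.0997). The log2 difference of CKS1B, a small subunit of CDK complexes, was -0.38 and passed. CKS2, its close relative, read 3088.4 and 2580.0 against 3326.6 and 3145.6. Both TET1 siRNA arrays of CKS2 were above the controls, by 0.20 on the log2 scale (SE 0.0828), which did not pass (limma adjusted p = 0.119).

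The transcription factors of late cell cycle genes were dim on these arrays and none of the 3 passed. FOXM1, an activator of G2 genes, read 117.3 and 90.8 against 75.3 and 64.9, a log2 difference of -0.47 (SE 0.163, limma adjusted p = 0.0594). MYBL2 (B-Myb) read 146.9 and 88.1 against 68.2 and 95.6, with overlapping groups. LIN9, a subunit of MuvB, read 36.7 and 18.8 against 30.6 and 12.5 and overlapped as well. The SE of these genes was 0.163 to 0.293 on the log2 scale, against 0.0627 for CDK1.

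CCNB1, which encodes the main mitotic cyclin, has 2 probe sets above the filter, and they did not give the same call. The brighter, 214710_s_at, read 1294.6 and 1235.3 with control and 1209.2 and 1301.4 with TET1 siRNA. Its groups overlapped, and its log2 difference was -0.01 (SE 0.0738, limma adjusted p = 0.944 among 27306 probe sets). The dimmer, 228729_at, read 383.0 and 354.9 against 237.0 and 273.6. Its groups did not overlap and it fell by 0.51 (SE 0.106, limma adjusted p = 0.00823). Within each array the log2 ratio of the dimmer to the brighter probe set was -1.72 and -1.75 with control and -2.28 and -2.19 with TET1 siRNA, a difference of -0.50 (exact permutation test, two-sided, p = 0.33, the smallest that 2 against 2 arrays allow). The call of 228729_at ended without control siRNA replicate 1 (log2 difference -0.45, limma adjusted p = 0.0525) and without TET1 siRNA replicate 1 (-0.41, 0.0582). Which CCNB1 transcripts each probe set reads was not settled here. In counts, medians and figures by gene, CCNB1 stands by its brighter probe set, 214710_s_at, and is among the members that did not pass.

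**Figure D3:**
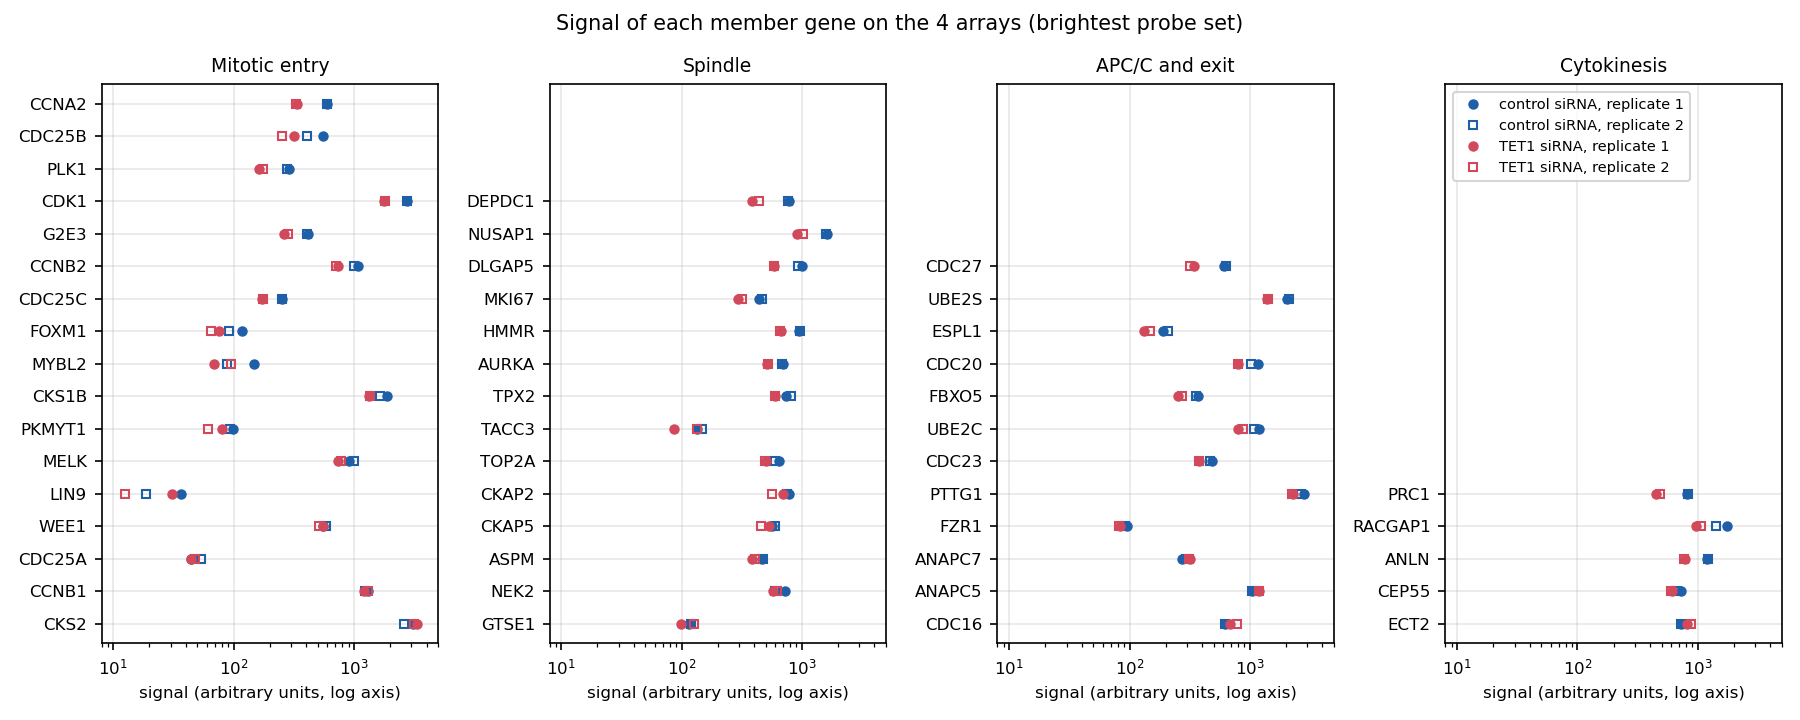
Signal of each member gene's brightest probe set on the 4 arrays (horizontal log axis, arbitrary units), by step; blue marks control siRNA, red marks TET1 siRNA, filled circles replicate 1 and open squares replicate 2. In CCNA2, CDK1, DEPDC1, CDC27 and PRC1 the red points lie well left of the blue ones, while in CCNB1 (1209.2 to 1301.4) they mix.

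Spindle genes were lower in 8 of 14 members, none was higher, and the median log2 difference was -0.36. DEPDC1, a gene expressed in dividing and cancer cells, fell furthest of all members and ranked 187th of 12389 genes by log2 difference. It read 777.8 and 772.3 with control and 384.5 and 441.6 with TET1 siRNA, a log2 difference of -0.89 (SE 0.0897, limma adjusted p = 6.43e-05). All 4 of its probe sets fell, by 0.59 to 0.89. NUSAP1, which bundles microtubules around chromosomes, went from 1612.0 and 1571.8 to 905.0 and 1017.8 (log2 difference -0.72, SE 0.0772), and both of its probe sets fell. DLGAP5 (HURP), which stabilises kinetochore fibres, went from 1006.8 and 932.1 to 584.1 and 584.4 (-0.71, SE 0.0785). The groups of these 3 genes were well apart, and the TET1 siRNA arrays of DLGAP5 were nearly equal.

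MKI67, the proliferation marker Ki-67 that coats mitotic chromosomes, read 438.4 and 463.8 against 295.2 and 316.4. It fell by 0.54 (SE 0.0926) and in 3 of its 4 probe sets, with the remaining one at -0.37. The dimmest MKI67 probe set passed narrowly (log2 difference -0.51, limma adjusted p = 0.0483). It did not pass with quantile normalization (limma adjusted p = 0.0681), with each array centred on its median (0.0625) or with the replicate number as a block (0.0562). Its difference ran from -0.61 to -0.41 when 1 array was left out, and the call ended whichever array that was. HMMR, a microtubule-binding protein of spindle poles, had log2 differences of -0.51 in its brighter and -0.46 in its dimmer probe set, both past the threshold. AURKA, the Aurora A kinase, read 697.1 and 683.9 against 510.1 and 524.8 and fell by 0.41 and in 2 of its 3 probe sets. The second AURKA probe set did not pass without control siRNA replicate 1 (limma adjusted p = 0.131) or TET1 siRNA replicate 1 (0.195). TPX2, which activates it on the spindle, fell by 0.37, a call that ended without control siRNA replicate 2 (-0.30, limma adjusted p = 0.0618). TOP2A, the topoisomerase that untangles sister chromatids, fell by 0.32 and in both of its probe sets above the filter. The TOP2A call held in 8 of 16 alternatives. It ended without control siRNA replicate 1 (-0.26, limma adjusted p = 0.117), TET1 siRNA replicate 1 (0.0732) or TET1 siRNA replicate 2 (0.0915), and with each array centred on its median (0.0628). HMMR, AURKA, TPX2 and TOP2A kept 69.9% to 79.6% of their control signal, a smaller loss than that of DEPDC1.

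The 6 spindle genes that did not pass all had negative differences. CKAP2, CKAP5, ASPM and TACC3 had both TET1 siRNA arrays below both control arrays, with log2 differences of -0.28, -0.24, -0.23 and -0.35. ASPM focuses spindle poles, CKAP5 (ch-TOG) polymerises microtubules and TACC3 holds it on the spindle. NEK2, a kinase that separates centrosomes, overlapped between groups in its brighter probe set (-0.15), and its other probe set was at 0.13. GTSE1, a microtubule-binding protein of G2, was at -0.06 in its brightest probe set (115.1 and 120.1 against 99.3 and 125.8), but 1 of its 4 probe sets fell (110.3 and 113.1 against 74.7 and 79.8, log2 difference -0.45, limma adjusted p = 0.0489). That call ended when any 1 array was left out (limma adjusted p from 0.110 to 0.178). Within arrays the ratio of these GTSE1 probe sets differed by -0.39 between groups (exact permutation test, p = 0.33). The brightest GTSE1 probe set is of the _x_at kind, whose probes can match other sequences. So are the probe sets that stand for FOXM1, PKMYT1, LIN9 and ANAPC5.

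**Figure D4:**
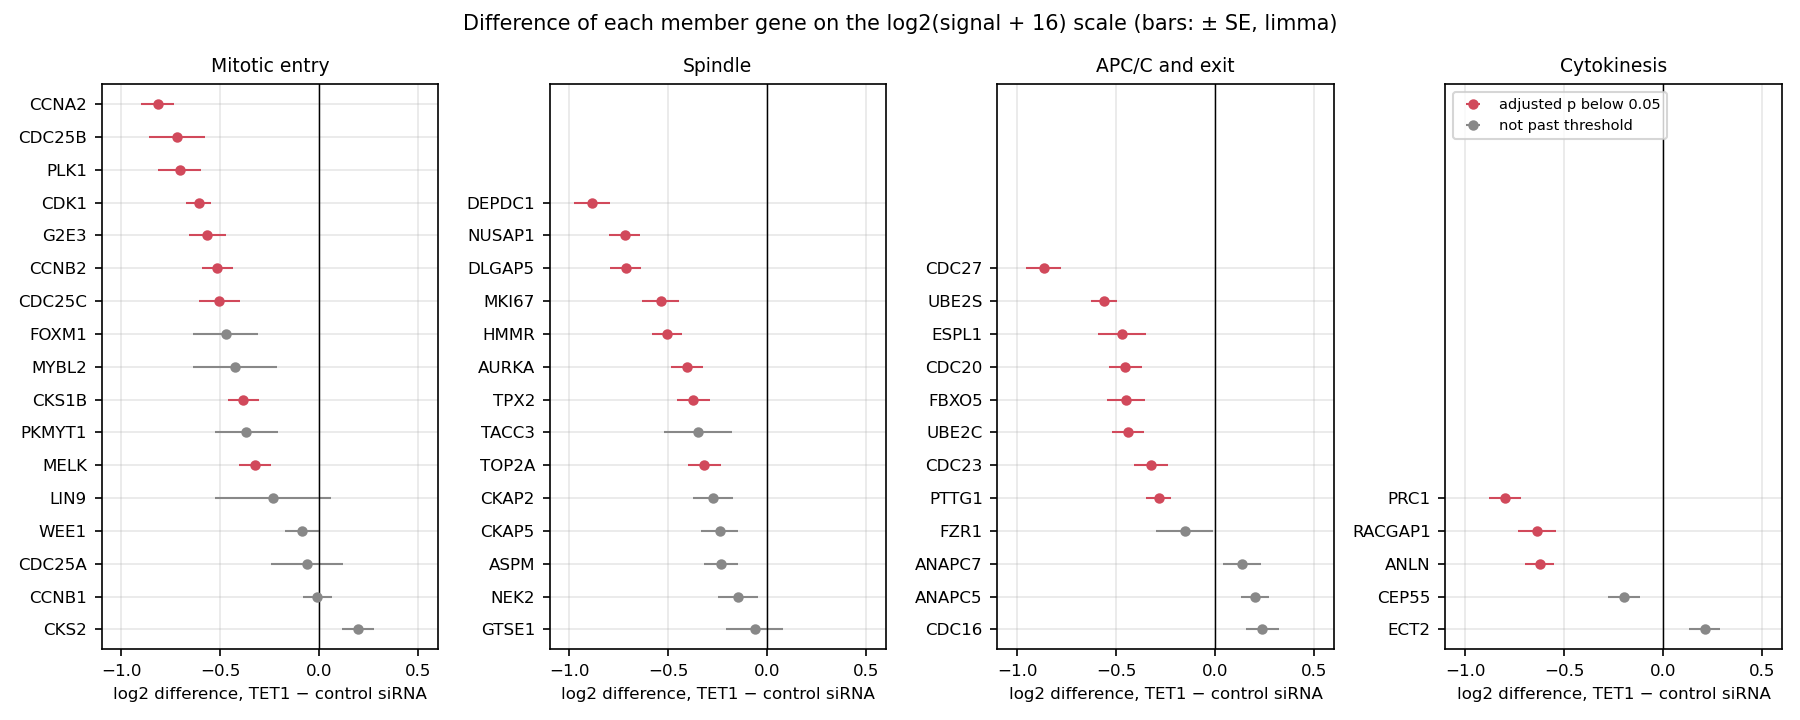
Log2 difference between TET1 and control siRNA of each member gene (horizontal axis, log2(signal + 16) scale) with bars of ± 1 SE from limma, by step; red points passed at adjusted p below 0.05 and grey points did not. All red points lie left of 0, from -0.89 (DEPDC1) to -0.29 (PTTG1), and 5 grey points lie right of 0.

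Genes of the APC/C and mitotic exit were lower in 8 of 12 measured members, none was higher, and the median log2 difference was -0.38. Of 7 activators, ubiquitin-conjugating enzymes, inhibitors and substrates 6 fell, while 2 of 5 core subunits fell and the other three had positive differences. This grouping was made after the values were seen and was not tested.

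UBE2S, the enzyme that extends ubiquitin chains for the APC/C, went from 2018.8 and 2099.4 to 1375.0 and 1400.3, a log2 difference of -0.56 (SE 0.0662, limma adjusted p = 1.55e-04). UBE2C, which starts those chains, kept 73.3% of its control signal and fell by 0.44. CDC20, the activator that opens anaphase, read 1173.3 and 1019.2 against 790.4 and 798.0, a fall of 0.45 (SE 0.0834). FZR1 (CDH1 of the APC/C), the activator of late mitosis and G1, was dim and did not pass in any of its 4 probe sets (-0.15 by the brightest). FBXO5 (EMI1), an APC/C inhibitor, read 373.6 and 355.4 against 254.1 and 271.3 and fell by 0.45 in its brighter probe set. That probe set is of the _x_at kind, whose probes can match other sequences. The other FBXO5 probe set was at -0.26 and did not pass.

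ESPL1 encodes separase, which cuts cohesin, and PTTG1 encodes securin, which holds separase back. ESPL1 read 191.4 and 210.0 against 131.7 and 149.1 and fell by 0.47 (SE 0.121, limma adjusted p = 0.0169). The call ended without control siRNA replicate 2 (-0.41, limma adjusted p = 0.0970) and without TET1 siRNA replicate 1 (-0.39, 0.113). PTTG1 read 2805.4 and 2673.5 against 2259.2 and 2225.8 and fell by 0.29, the smallest fall that passed, and did not pass without TET1 siRNA replicate 2 (limma adjusted p = 0.0639). Its probe set is of the _x_at kind, whose probes can match other sequences, and PTTG1 has near-identical copies, so its value is uncertain.

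Among core subunits CDC27 (APC3) stood apart. It read 605.6 and 628.0 with control and 345.9 and 316.5 with TET1 siRNA, which is 53.7% of control, and fell by 0.87 (SE 0.0889, limma adjusted p = 6.86e-05). All 4 CDC27 probe sets fell, by 0.52 to 0.89, though 2 of them did not pass without control siRNA replicate 2 (limma adjusted p = 0.0585 and 0.0660) and 1 of these without TET1 siRNA replicate 1 (0.0919). CDC23 (APC8) fell by 0.32 in its bright probe set, from 484.0 and 470.0 to 377.1 and 378.3, while a dim one was at 0.11. The CDC23 call ended when any 1 array was left out (limma adjusted p 0.0579 to 0.0838), with each array centred on its median (-0.29, adjusted p = 0.0552) and with the mean of its probe sets (-0.11, adjusted p = 0.489). CDC16 (APC6), ANAPC5 and ANAPC7 had both TET1 siRNA arrays above both controls without passing, at 0.24, 0.20 and 0.13. CDC16 read 616.3 and 615.5 against 686.7 and 773.9, and ANAPC5 1037.0 and 1043.8 against 1195.8 and 1199.7. Tested probe set by probe set, 2 of the 6 ANAPC5 probe sets rose (0.32 and 0.30, limma adjusted p = 0.0169 and 0.0498), the only members' probe sets to do so. The first did not pass without control siRNA replicate 1, TET1 siRNA replicate 1 or TET1 siRNA replicate 2 (limma adjusted p from 0.0543 to 0.0971), nor the second without either control siRNA array or TET1 siRNA replicate 2 (0.0918 to 0.299). ANAPC5 passed as a gene with an upper-quartile filter on dim probe sets (limma adjusted p = 0.0452).

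The remaining APC/C subunits gave no common direction. Of 8 measured, ANAPC11, the RING subunit, fell by 0.34 and CDC26 by 0.29, ANAPC13 rose by 0.24, and 5 did not pass. Tested probe set by probe set, 1 of the 2 ANAPC11 probe sets fell, with the other at -0.07. The only CDC26 probe set, 1 in number, did not pass in that fit. Over all 13 core subunits measured, 4 fell and 1 rose, with a median of -0.18. ANAPC1 could not be given a value, because its 3 probe sets are annotated to pseudogenes of it as well. They read 364.9 and 295.1 against 353.0 and 359.1, 84.8 and 83.3 against 51.0 and 58.6, and 260.1 and 253.5 against 262.9 and 278.4, and none passed.

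Cytokinesis genes were lower in 3 of 5 measured members, none was higher, and the median log2 difference was -0.62. PRC1, which bundles the microtubules of the central spindle, read 815.9 and 827.1 with control and 445.1 and 486.8 with TET1 siRNA. It kept 56.7% of control and fell by 0.80 (SE 0.0827, limma adjusted p = 7.19e-05). RACGAP1, the GTPase-activating subunit of centralspindlin, went from 1752.5 and 1417.3 to 960.2 and 1058.0 (log2 difference -0.64, SE 0.0978). ANLN (anillin), which ties the contractile ring to the membrane, went from 1186.6 and 1215.7 to 781.3 and 766.4 (-0.62, SE 0.072), and its other probe set fell by 0.70. In these 3 genes the groups were clear of each other, though the control arrays of RACGAP1 differed widely.

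CEP55, the scaffold of abscission, read 725.8 and 668.3 against 607.3 and 603.9, a log2 difference of -0.20 that did not pass. ECT2, the exchange factor that activates RhoA at the cell equator, gave opposite directions by probe set. The brightest read 723.3 and 730.9 against 807.9 and 880.8 (0.21, not past the threshold). The second read 285.8 and 328.2 against 240.1 and 218.6 and fell by 0.39 (SE 0.110, limma adjusted p = 0.0327), a call that ended without control siRNA replicate 2 or either TET1 siRNA array (limma adjusted p from 0.0528 to 0.193). This second probe set is of the _x_at kind, whose probes can match other sequences. Within arrays the log2 ratio of the second to the brightest probe set differed by -0.61 between groups (exact permutation test, two-sided, p = 0.33). With the mean of the 3 ECT2 probe sets the gene was at -0.14 (adjusted p = 0.361 in limma). The brighter probe set annotated to CIT (citron kinase) also lists the microRNA gene MIR1178, so it was not counted. It read 102.6 and 117.2 against 67.7 and 69.2 and fell by 0.57 (limma adjusted p = 0.0217).

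Each probe set was also tested by itself. Of the members' 108 probe sets 100 were above the filter, of which 51 fell, 2 rose and 47 did not pass, beside 8.31% lower and 7.76% higher among all 27306 probe sets tested. By step, 17 of 30 fell for entry, 18 of 33 for the spindle, 11 of 29 for the APC/C and 5 of 8 for cytokinesis. Of 28 genes with more than 1 probe set tested, 8 had every probe set past the threshold and all 8 fell. In 9 none passed and in 11 some did, and no gene had probe sets past the threshold in opposite directions. Differences of all probe sets had 1 sign in 23 of the 28 genes.

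**Figure D5:**
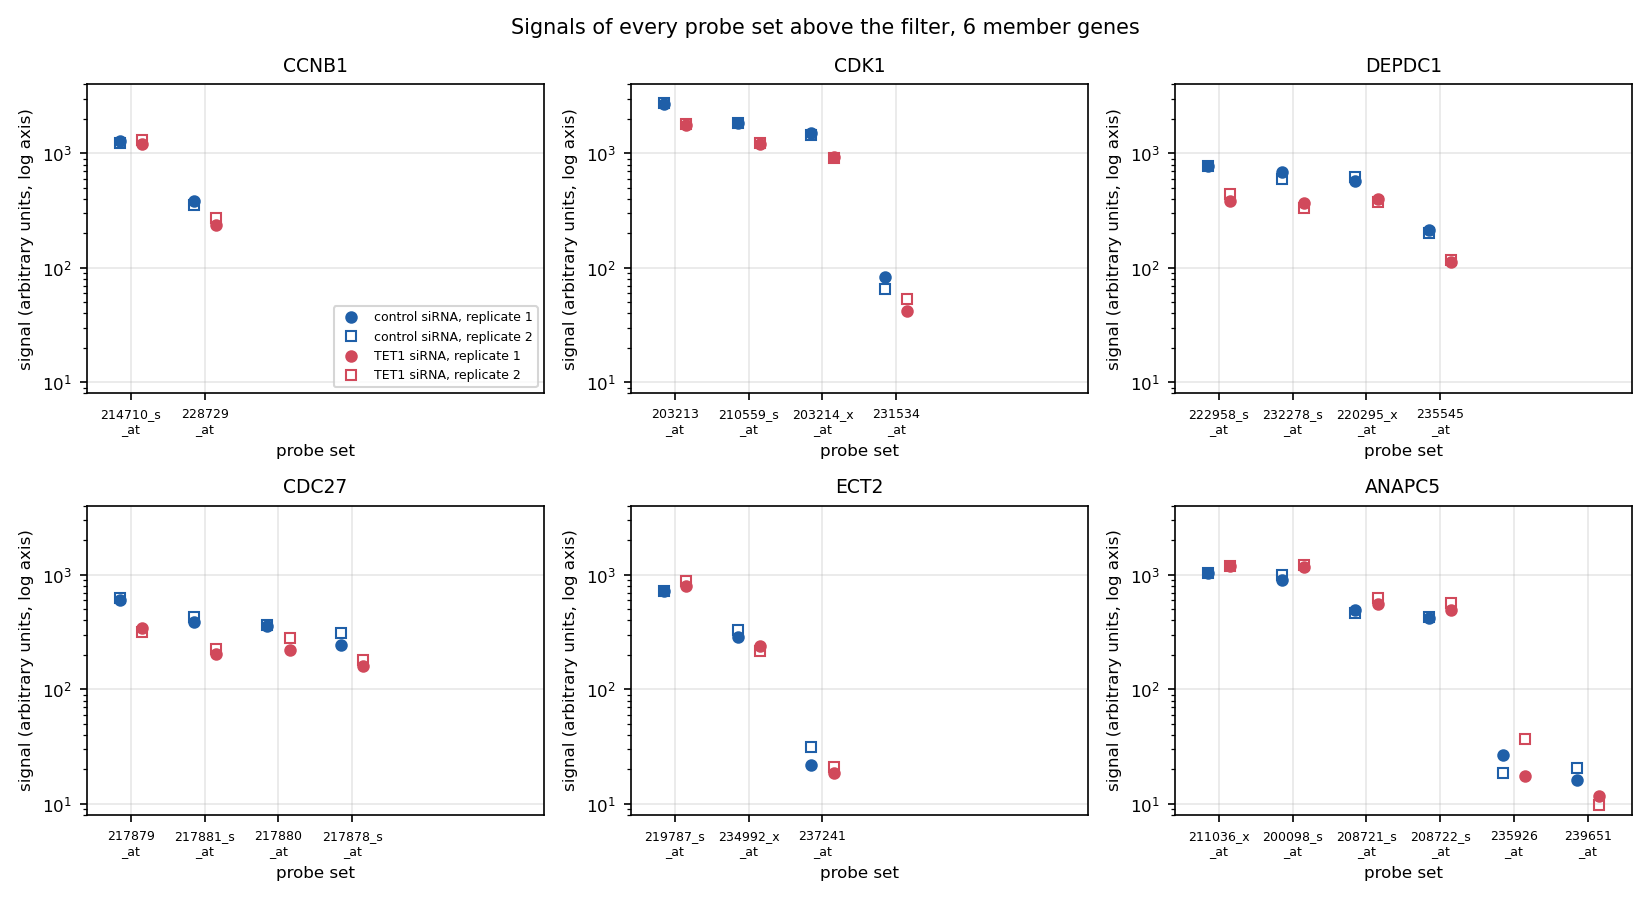
Signals (vertical log axis, arbitrary units) of every probe set above the filter for 6 genes; blue marks control siRNA, red TET1 siRNA, circles replicate 1 and squares replicate 2. All 4 DEPDC1 and all 4 CDC27 probe sets are lower with TET1 siRNA, while CCNB1 and ECT2 each have a bright probe set that is not lower and a dimmer one that fell by 0.51 and 0.39.

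Genes around the members, from lists of the same pathways, gave smaller medians, with calls in both directions. Their counts are to be read against the 10.6% of all genes that fell and the 11.2% that rose, and with lists this short several are near those shares. Of 18 other kinases, phosphatases and regulators of entry 5 fell and 1 rose, with a median of -0.10. ENSA, an inhibitor of the phosphatase PP2A-B55, fell most, from 695.9 and 708.7 to 251.7 and 262.4 (log2 difference -1.40), but only 2 of its 5 probe sets passed. The cyclin gene CCNF fell by 0.58, and CDK7, the kinase that activates CDK1, rose by 0.58. Of 11 partners in DREAM and MuvB 2 fell and 2 rose, with a median of 0.02: RBBP4, a MuvB subunit, fell by 0.65, MYBL1, a relative of MYBL2, rose by 0.52, and TFDP2, an E2F partner, rose by 0.62 and in 2 of its 4 probe sets. The TFDP2 probe set with the lowest difference was at -0.44, the opposite direction, and did not pass. None of the 3 NF-Y subunit genes passed.

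Of 34 other spindle and centrosome genes 8 fell and 2 rose, with a median of -0.14. HAUS5, an augmin subunit, fell by 0.98 and NDE1, a dynein regulator, fell by 0.75, while the kinase gene NEK6 rose by 0.66. Of 21 other cytokinesis genes 2 fell and 6 rose, with a median of 0.05. VPS4B, the ATPase that completes abscission, rose by 0.82 and MYH9, a myosin heavy chain of the ring, by 0.62, while SEPTIN6 fell by 0.68 in 1 of its 5 probe sets. MYH10, another myosin heavy chain in the list, was brighter than MYH9 and did not pass (0.05, limma adjusted p = 0.743). These lists were written without ranking by value but with earlier results of the series known.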

How the data were processed

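The deposited table holds 1 intensity per probe set and array on a linear scale, as made by the authors; the software behind it is not given in the sources used here. From the values, the arrays share a trimmed mean of 100.01 (2% trimmed per tail), which hides any change in total mRNA. Per the labels' protocols cDNA was primed with oligo(dT), so signals come mainly from 3' ends. Spike-in and other control probe sets (62 of 54675) were not used; 41091 had 1 gene symbol, 1801 several and 11721 none, and 41037 matched RefSeq (GRCh38.p14) for current symbols.

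Values were used as log2(signal + 16). The brightest probe set over all arrays stood for a gene, and 12389 genes whose mean log2 value exceeded the median of all probe sets (4.86, a signal of 13.1) were tested. Groups, taken from the siRNA in the labels, entered a linear model (limma 3.58.1, R 4.3.3; lmFit, then eBayes with a variance trend; 2 residual and 9.24 prior degrees of freedom), two-sided, with Benjamini-Hochberg adjustment over all genes, threshold 0.05. All 27306 probe sets above the filter were fitted in the same way. The code was tested on simulated data.

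The members and all lists were chosen with earlier results of these data known. Full values are given for the 4 members of each step with the largest difference past the threshold and non-overlapping groups, for every CCNB1 probe set, for members whose probe sets differed in call, and for up to 3 genes past the threshold of each pathway list. Other genes with values, among them CKS2, the transcription factors and the cell type markers, were named after their values were seen. Alternatives covered normalization, pseudocount, variance model, replicate block, leaving out arrays, filter, probe set choice and threshold. Figures were drawn with matplotlib 3.10.9. A planned comparison of cyclin proteins was not run, because no protein sequences were used here.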

Additional observations from a re-analysis of the deposited data

How the results depend on the processing

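The members' falls kept their direction as a group under every alternative run, with a median log2 difference of -0.36 with each array centred on its median, -0.43 with a pseudocount of 1, -0.34 with a pseudocount of 64, -0.43 with an upper-quartile filter and -0.43 without _x_at and _s_at probe sets. Leaving out 1 array gave medians of -0.45 to -0.36, 25 to 26 member genes lower and 0 to 1 higher, 38 to 44 member probe sets lower and 0 to 2 higher. Such fits take the spread of the group left with 1 array from the other group. The count of member genes lower was 15 without a variance trend (4.37% of all genes lower). It was 0 in limma without moderation, which has 2 residual degrees of freedom, and 11 at 1.5-fold or more (4.33%). Without _x_at and _s_at probe sets it was 17 of the 32 members that could be tested (9.51% of all genes lower). Member probe sets lower were 13 without a variance trend, 0 without moderation and 23 at 1.5-fold or more. The matching shares of all probe sets are not given here. With an upper-quartile filter 1 member gene was higher (ANAPC5). Member probe sets higher, 2 in the fit reported, were 3 with median centring and with an upper-quartile filter, 1 with quantile normalization and with a pseudocount of 1, and 0 without a variance trend, without moderation, with no filter, at adjusted p below 0.01 and at 1.5-fold. The CCNB1 probe set 214710_s_at changed sign with median centring (0.024) and ran from -0.064 to 0.041 when 1 array was left out, never near the threshold, and CCNB1 as a gene, read by that probe set, was at 0.024 with median centring and at 0.022 and 0.041 without replicate 1 of the control or TET1 siRNA. It was at -0.26 with the mean of its probe sets (limma adjusted p = 0.0691) and at -0.51, past the threshold (0.00677), without _x_at and _s_at probe sets, which leaves 228729_at. The probe set 228729_at stayed at -0.51 but did not pass without a variance trend (limma adjusted p = 0.0917), without moderation (0.257) or at 1.5-fold, and ran from -0.60 to -0.41 when 1 array was left out. ECT2 turned to -0.14 with the mean of its probe sets and to -0.25 without _x_at and _s_at probe sets, and GTSE1 to 0.086 without TET1 siRNA replicate 1, with a range from -0.21 when 1 array was left out. Where no construction of the alternative is given, the cause was not tested.

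Of all genes tested 1316 fell and 1393 rose, against 1008 and 1447 with each array centred on its median. With no filter the counts were 854 and 905, with 1 prior variance 542 and 442, then 731 and 751 at adjusted p below 0.01, and 537 and 429 at 1.5-fold. Averaging a gene's probe sets left 772 rises, and there were 885 without _x_at and _s_at probe sets. Leaving out 1 array gave 873 to 982 lower and 813 to 1159 higher. CCNA2, CDK1, PLK1, DEPDC1, NUSAP1, DLGAP5, CDC27 and ANLN fell in all 16 alternatives other than limma without moderation. With the replicate number as a replicate block 30 member genes fell, among them the 28 of the fit without it. The labels do not say that the numbers pair samples, and the deviations of same-numbered arrays had a correlation of 0.0055 across genes, which are not independent replicates.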
